A study of Mus musculus with 12 samples.

Results

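Gas5, Snhg1, Snhg3, Snhg5, Snhg6, Snhg8 and Snhg12 are non-coding transcripts whose introns carry small nucleolar RNAs (snoRNAs). They were chosen by symbol from the list of snoRNA hosts that begin with a 5′ terminal oligopyrimidine (TOP) tract. All 7 had a row among the 23230 genes of the table. The transcripts were measured in mouse oocytes by Smart-seq2, in which oligo-dT primes cDNA from polyadenylated RNA, in 2 libraries of 10 oocytes for each of 6 groups. WT and Zar1/2-null females were both of a C57BL6/ICR hybrid background. They gave growing oocytes at 13.5 days of age by the sample labels, where the study's methods give a lower age. Fully grown oocytes with a germinal vesicle (GV) were taken at 21 days and 44 h after PMSG. Ovulated oocytes, called MII, were collected 16 h after hCG, which by the study's methods followed PMSG. Zar1 and Zar2 encode RNA-binding zinc-finger proteins of the oocyte, and both were disrupted in the whole animal with CRISPR/Cas9. The study's own microscopy placed ovulated Zar1/2-null oocytes mostly in meiosis I, so the groups called MII differ in meiotic stage as well as in genotype.

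Hosts of this kind are transcribed for the RNAs in their introns. Box C/D snoRNAs guide ribose methylation and box H/ACA snoRNAs guide pseudouridylation of ribosomal RNA, and both are trimmed from the excised intron. The spliced exons hold no long reading frame. For Gas5 and Snhg1 the spliced RNA is known to associate with ribosomes and to be removed by nonsense-mediated decay, so its level in growing cells is set by decay as well as by transcription. A TOP tract, a cytosine followed by a run of pyrimidines at the first transcribed bases, is shared with the messenger RNAs of ribosomal proteins and links translation of these RNAs to growth signals. Growing oocytes build ribosomes, fully grown oocytes become transcriptionally silent, and much of the stored RNA is removed during meiotic maturation.

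The table held FPKM, a level in fragments scaled by the length of the transcript and by the size of the library, that the authors had multiplied by a factor from the ERCC spike-in RNA of each library, so that a level stands for RNA per oocyte pool and not for a share of the library. The factors lay between 0.697 and 1 in growing and GV WT libraries and Zar1/2-null growing libraries, at 0.533 and 0.583 in Zar1/2-null GV libraries, and between 0.225 and 0.283 in the 4 MII libraries. FPKM is per length of transcript, so levels were also set against each other between hosts. The table holds no read counts, and the read totals that the study lists for the libraries were not used here, so no counting error is given for a value. Zar1l, the symbol of Zar2, had 639 and 644 FPKM in WT growing libraries against 17.5 and 13.2 in Zar1/2-null libraries. It was lower in both Zar1/2-null libraries at GV and MII too. Zar1 was lower in Zar1/2-null growing and GV libraries but had 190 and 194 FPKM in the libraries labelled Zar1/2-null MII against 83.6 and 72.4 in WT. Each null allele is a short deletion, that of Zar1 being followed by an early stop codon, so transcripts of a disrupted gene can remain. The 12 oocyte markers (zona proteins, Gdf9, Bmp15 and others) summed to between 3565 and 19466 FPKM in a library. The 15 granulosa and cumulus markers summed to between 5.21 and 35.8 FPKM, with Ptx3 at 0 in every library and Amh at 0 in both libraries of 5 of the 6 groups. Others of these markers were present. In single libraries Cyp19a1 reached 19.04, Nr5a2 11.5, Inha 3.11, Kitl 2.58 and Gja1 2.45 FPKM. In such pools, less RNA per oocyte, fewer intact oocytes in the pool and shorter poly(A) tails cannot be told apart.

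The list is named for its TOP tracts, so the first transcribed bases are shown for the start sites that RefSeq gives in build GRCm38.p6. Each line holds 30 bases on the sense strand, 10 before and 20 from the start, and capitals mark a tract, defined as C followed by at least 4 bases that are each C or T. Gas5 has a pair of listed starts and is shown at both, and Snhg6 had no entry.
Gas5, upstream start (chr1:161034591-161034620, plus strand): gcgggcccgcgagctcgacagcccggagcc
Gas5, downstream start (chr1:161035156-161035185, plus strand): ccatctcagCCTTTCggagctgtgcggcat
Snhg1 (chr19:8723477-8723506, plus strand): tcttgtcggcctcatttttccttgttcggg
Snhg3 (chr4:132353667-132353696, minus strand): gaccacgcctgaCTTCCgggcgttacttaa
Snhg5 (chr9:88522878-88522907, minus strand): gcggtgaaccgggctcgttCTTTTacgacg
Snhg8 (chr3:123508317-123508346, minus strand): gttcagaagtCTCTTTggctgcgatccgcc
Snhg12 (chr4:132308668-132308697, plus strand): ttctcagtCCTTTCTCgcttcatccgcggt

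A tract stood in 5 of the 7 start sites. It began exactly at the annotated start of Snhg8, and spanned the start of Snhg12 and of the downstream Gas5 site. In Snhg3 and Snhg5 it lay further inside, beginning at bases 3 and 10. The same letters were found in 35.8% of 32851 start sites of all genes and in 60.6% of 66 start sites of ribosomal protein genes, so the match alone does not set these hosts apart. A start annotated a few bases away from the one used in oocytes would move or hide a tract.

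By RefSeq, 8 snoRNA genes lie inside the span of Gas5, 8 inside Snhg1, 2 inside Snhg3, 2 inside Snhg5, 4 inside Snhg12 and 1 each inside Snhg6 and Snhg8. In mm9, the build of the deposited values, GENCODE places Gas5 on chromosome 1 (162964553 to 162968670, plus strand), Snhg1 on chromosome 19 (8797986 to 8800932, plus strand), Snhg3 on chromosome 4 (131903929 to 131909601, minus strand), Snhg5 on chromosome 9 (88415894 to 88417721, minus strand) and Snhg12 on chromosome 4 (131864593 to 131866939, plus strand), each as a non-coding gene. The library kit does not keep strand, so reads of overlapping genes cannot be told apart. Zbtb37 overlaps Gas5 on the other strand, and 6030422M02Rik (Mcmdc2), whose mean was under 1 FPKM in every group, overlaps Snhg6.

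Snhg6, host of the box C/D snoRNA Snord87, reached the highest level of the 7. In growing oocytes the WT libraries held 37.3 and 40.3 FPKM of Snhg6 and those of Zar1/2-null females 73.1 and 54.4 FPKM. In GV oocytes the WT libraries held 37.4 and 25.9 FPKM and those of Zar1/2-null females 140 and 113 FPKM. In MII oocytes the WT libraries held 3.67 and 2.82 FPKM and those of Zar1/2-null females 95.7 and 69.2 FPKM. At no stage did the libraries of the genotypes overlap, Zar1/2-null being the higher, and the ratio between them was greatest at MII. Ranked within its own library, Snhg6 stood above 72.1% and 66.2% of the 11502 genes tested in WT MII oocytes and above 96.6% and 96.2% of them in Zar1/2-null MII oocytes.

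Snhg1 carries a cluster of box C/D snoRNAs and was, with Snhg6, the most abundant host in WT growing and GV oocytes. In growing oocytes the WT libraries held 49.1 and 38.7 FPKM of Snhg1 and those of Zar1/2-null females 11.7 and 14.6 FPKM. In GV oocytes the WT libraries held 60.2 and 31.4 FPKM and those of Zar1/2-null females 19.6 and 18.5 FPKM. In MII oocytes the WT libraries held 1.21 and 0.764 FPKM and those of Zar1/2-null females 9.35 and 4.33 FPKM. The Zar1/2-null libraries were thus the lower ones before maturation and the higher ones after it, without overlap at any stage. The 2 WT GV libraries were further apart from each other than the lower of them was from the Zar1/2-null libraries.

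Snhg5, host of a pair of Snord50 box C/D snoRNAs, had 12.6 and 11.97 FPKM in WT growing libraries and 5.36 and 4.17 FPKM in Zar1/2-null growing libraries. The GV libraries held 11.2 and 8.21 FPKM in WT and 6.84 and 6.44 FPKM in Zar1/2-null females. At MII the WT libraries held 0.434 and 0.279 FPKM and those of Zar1/2-null females 0.694 and 0.320 FPKM. Both Zar1/2-null libraries were below WT in growing and GV oocytes, and at MII all 4 libraries were under 1 FPKM and overlapped.

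Gas5, named for its accumulation in growth-arrested cells, had 6.86 and 5.33 FPKM in WT growing libraries and 3.71 and 2.79 FPKM in Zar1/2-null growing libraries. The GV libraries held 8.09 and 5.41 FPKM in WT and 7.20 and 6.45 FPKM in Zar1/2-null females. At MII the WT libraries held 2.15 and 1.40 FPKM and those of Zar1/2-null females 4.44 and 3.25 FPKM. The Zar1/2-null libraries were below WT in growing oocytes, between the WT libraries at GV and above them at MII.

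Snhg3, host of the H/ACA snoRNAs Snora73a and Snora73b, which take part in the processing of ribosomal RNA rather than its modification, had 4.20 and 3.79 FPKM in WT growing libraries and 11.4 and 5.29 FPKM in Zar1/2-null growing libraries. The GV libraries held 6.33 and 5.78 FPKM in WT and 11.7 and 8.87 FPKM in Zar1/2-null females. At MII it had 0.470 and 0.372 FPKM in WT and 1.42 FPKM in each Zar1/2-null library. Its Zar1/2-null libraries lay above WT at all 3 stages, but in growing oocytes they differed more from each other than the lower one did from WT.

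Snhg8, host of Snora24, stayed between 0.298 and 1.76 FPKM in all libraries. Its WT and Zar1/2-null libraries overlapped in growing and GV oocytes and not at MII, where the WT libraries held 0.641 and 0.298 FPKM and those of Zar1/2-null females 0.963 and 1.33 FPKM. Snhg12, which carries H/ACA and C/D snoRNAs, was listed at 0 in 6 of the 12 libraries and reached at most 0.807 FPKM, in a Zar1/2-null GV library. It never reached 1 FPKM and was not tested, which leaves 6 hosts for every test.

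**Figure D1:**
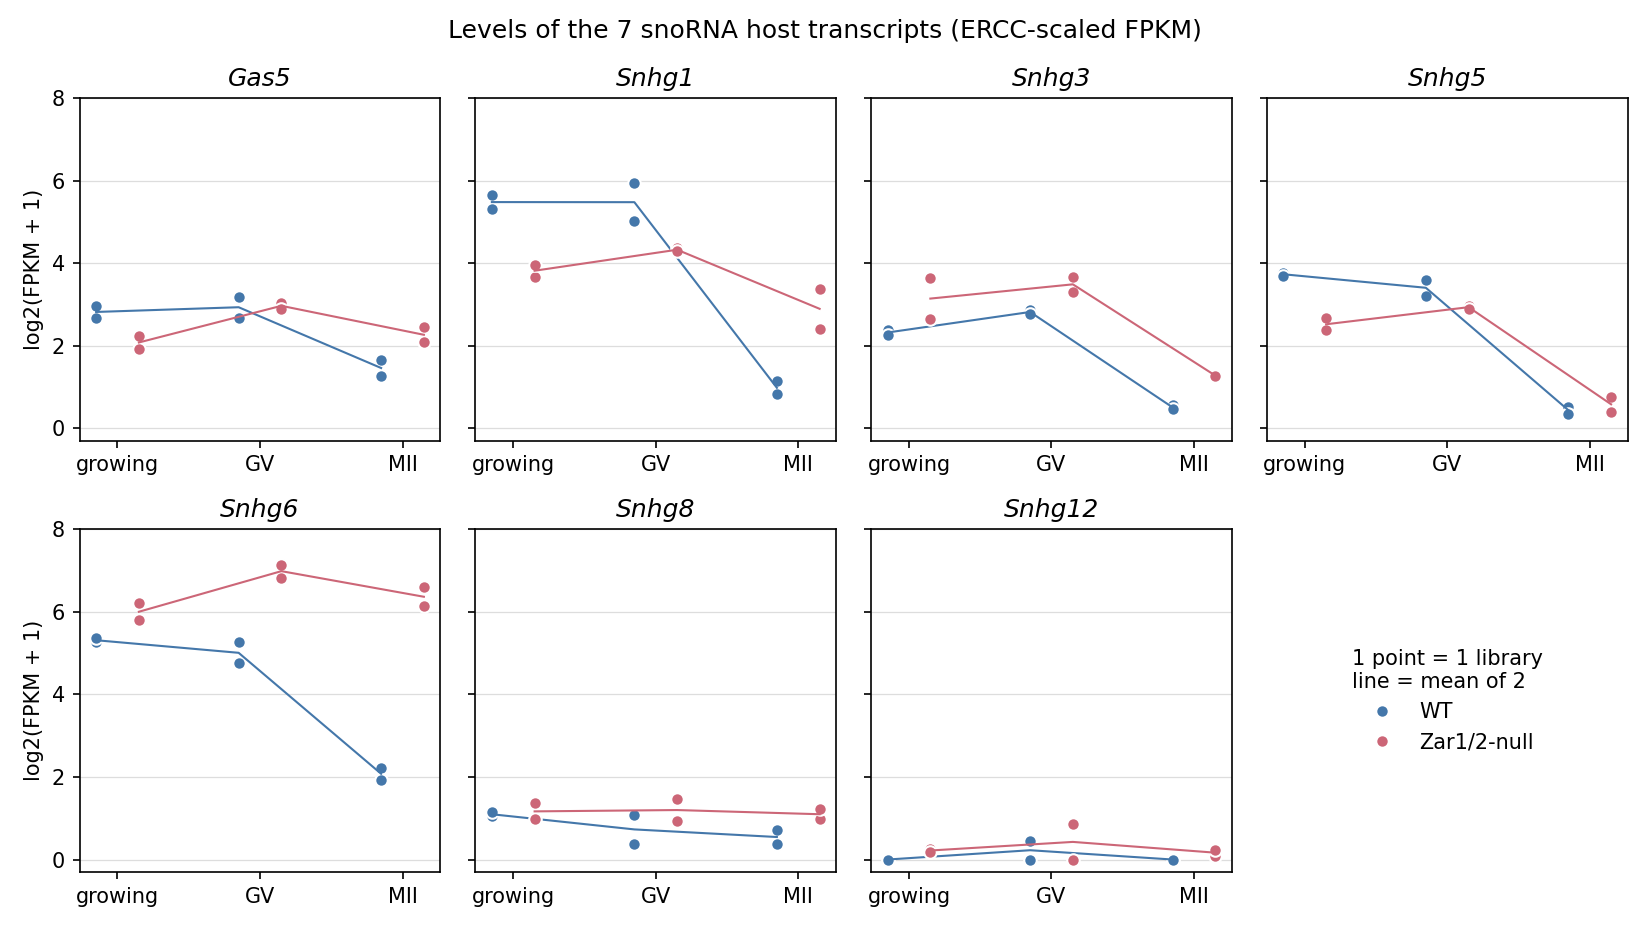
Level of each host in every library, as log2(FPKM + 1) with ERCC-scaled FPKM, at the growing, GV and MII stages. Points are libraries (blue, WT; red, Zar1/2-null) and lines join the means of 2. Snhg6 in Zar1/2-null oocytes stayed at or above 54.4 FPKM at all stages while WT fell to 2.82 and 3.67 FPKM, and Snhg1 crossed from lower to higher in Zar1/2-null oocytes between GV and MII.

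The order of the hosts by level differed between the genotypes. In WT growing and GV oocytes Snhg1 and Snhg6 came first, with overlapping libraries, followed by Snhg5 and then by Gas5 and Snhg3. Gas5 and Snhg3 did not overlap in growing oocytes and did so at GV. In Zar1/2-null oocytes Snhg6 stood alone at the top at each stage, Snhg1 came second, and the libraries of Snhg3 and Snhg5 overlapped in growing oocytes. At MII, Snhg1 and Gas5 overlapped in Zar1/2-null oocytes, whereas in WT Gas5 was above Snhg1.

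The summed FPKM of the 7 hosts was 111 and 101.3 in WT growing, 107 and 82.3 in Zar1/2-null growing, 124 and 77.9 in WT GV and 188 and 154 in Zar1/2-null GV libraries. At MII it was 8.57 and 5.93 in WT and 113 and 80.1 in Zar1/2-null libraries. The sum overlapped between the genotypes in growing oocytes, with a lower Snhg1 and a higher Snhg6 within it in Zar1/2-null oocytes. Snhg6 made up 33.5% and 39.8% of the sum in WT growing and 68.3% and 66.02% in Zar1/2-null growing libraries. It made up 30.2% and 33.3% in WT GV against 74.5% and 73.2% in Zar1/2-null GV libraries, and 42.8% and 47.5% in WT MII against 85.0% and 86.5% in Zar1/2-null MII libraries. These shares do not depend on the ERCC factor, which is common to all genes of a library.

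**Figure D2:**
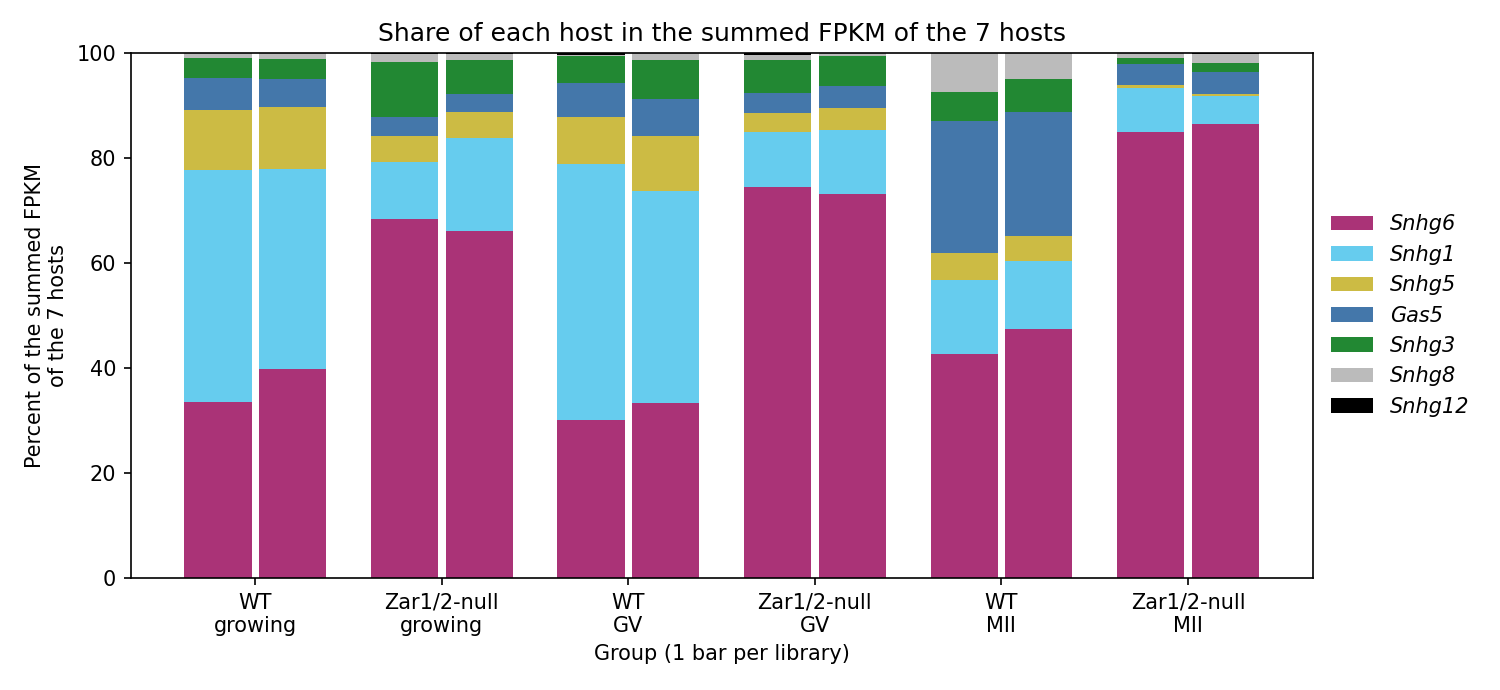
Percent of the summed FPKM of the 7 hosts that each host made up, with 1 bar for each library in the 6 groups. The share of Snhg6 was 30.2 to 47.5% in the WT libraries and 66.02 to 86.5% in the Zar1/2-null libraries.

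For each stage the genotypes were compared by limma, fitted to the log2(FPKM + 1) of all 12 libraries, with p-values adjusted by the Benjamini-Hochberg method over the 11502 genes that had at least 1 FPKM in a library. A gene was called at an adjusted p under 0.05. With 2 libraries against 2 an exact permutation test of a single gene cannot go below p = 0.333, and nothing in the labels says that the 2 libraries of a group came from different animals, so p-values measure the spread between these libraries only. Fold changes are log2 values of FPKM + 1 with their standard errors (SE, n = 2 each), which understate changes in genes near or under 1 FPKM, and ratios are of the mean FPKM.

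In growing oocytes, 3 hosts were lower and 2 higher in the Zar1/2-null than in the WT group, so the hosts did not move as one. Of all genes tested, 24.4% were called lower and 10.6% higher in this comparison. Snhg1 fell by 1.66 (SE 0.33, adjusted p = 0.00276), with a WT mean of 43.9 ± 7.33 FPKM against 13.2 ± 2.07 (SD). Snhg5 fell by 1.21 (SE 0.18, adjusted p = 0.000473), from 12.3 ± 0.439 to 4.76 ± 0.840 FPKM. These were among the more strongly lowered genes, since 2.15% of the genes tested had a lower log2 fold change than Snhg1 and 5% a lower one than Snhg5. Gas5 fell by 0.74 (SE 0.22, adjusted p = 0.0218), to 0.533 of the WT mean. Snhg3 rose by 0.82 (SE 0.25, adjusted p = 0.0267), from 3.997 ± 0.290 to 8.34 ± 4.31 FPKM. Snhg6 rose by 0.69 (SE 0.23, adjusted p = 0.0384), from 38.8 ± 2.12 to 63.7 ± 13.3 FPKM. Snhg8 had a log2 fold change of 0.07 (SE 0.25, adjusted p = 0.849).

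Snhg1 and Snhg5 were called lower in growing oocytes with the ERCC factors divided out as well, at -1.39 (adjusted p = 0.00777) and -0.97 (adjusted p = 0.00733). Gas5 was not, with -0.52 (adjusted p = 0.105). Without the factors 14.9% of all genes were called higher and 12.3% lower. The higher levels of Snhg3 and Snhg6 were called without the factors, at 1.08 and 0.97. In fits to these 2 groups alone, Snhg6 was called with all 4 libraries (0.69, adjusted p = 0.0386) and Snhg3 was not (0.82, adjusted p = 0.127). The next fits kept the libraries of all stages and left out 1 growing library. Without the first Zar1/2-null library the log2 fold changes shrank to 0.33 for Snhg3 and 0.48 for Snhg6, and both calls were lost. Without the first or the second WT library they kept their size and missed the threshold, at 0.88 and 0.76 (adjusted p = 0.0841 and 0.123) for Snhg3 and at 0.64 and 0.74 (adjusted p = 0.165 and 0.103) for Snhg6. Gas5 lost its call without the first WT library (-0.58, adjusted p = 0.155) and without the second Zar1/2-null library (-0.58, adjusted p = 0.159). The granulosa and cumulus markers moved with the lower hosts, at a sum of 31.1 to 35.8 FPKM in WT growing and 14.7 to 23.3 FPKM in Zar1/2-null growing libraries. Of these 15 markers, 9 in WT and 12 in Zar1/2-null oocytes were under 1 FPKM in both libraries. The 6 tested gave 4 lower and 1 higher, where 24.4% of all genes were called lower and 10.6% higher. Without the ERCC factors 3 were lower and 1 higher, beside 12.3% and 14.9% of all genes. In GV oocytes, on the ERCC scale, 2 were lower and 2 higher, beside 40.6% and 2.83% of all genes. The part of these markers in the lower hosts was not tested.

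In GV oocytes 1 host was called lower and 1 higher, where 40.6% of all genes were called lower and 2.83% higher. Snhg6 rose by 1.98 (SE 0.23, adjusted p = 0.000107), from 31.7 ± 8.09 to 126 ± 19.4 FPKM, a ratio of 3.99. The log2 fold change of Snhg6 was above that of 99.7% of the genes tested. Snhg1 fell by 1.15 (SE 0.33, adjusted p = 0.0158), from 45.8 ± 20.3 to 19.0 ± 0.775 FPKM. Its call did not hold without the ERCC factors (-0.72, adjusted p = 0.135), when 13.5% of all genes were called lower and 7.19% higher, nor without the first WT GV library (-0.69, adjusted p = 0.178). Without the first or the second Zar1/2-null library it missed the threshold at nearly the same size (-1.19 and -1.11, adjusted p = 0.0589 and 0.0663). Snhg3 was at 0.67 (SE 0.25, adjusted p = 0.0517) and Snhg5 at -0.47 (SE 0.18, adjusted p = 0.0527), both without overlap of the libraries. Without the ERCC factors Snhg3 passed the threshold (1.11, adjusted p = 0.0119) and Snhg5 was at -0.07. Gas5 (0.03, adjusted p = 0.907) and Snhg8 (0.47, adjusted p = 0.142) were not called, and their libraries overlapped. The median of all genes shifted by -0.38 in this comparison and by -0.03 without the factors, so a host at 0 on the ERCC scale stood above the middle of the genes. Leaving out the second WT GV library brought the count to 2 higher and 2 lower hosts, with Snhg5 at -0.67 (adjusted p = 0.0265) and Snhg8 at 0.82 (adjusted p = 0.0327).

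In ovulated oocytes 4 hosts were higher in the libraries labelled Zar1/2-null and none was lower, where 21.5% of all genes were called higher and 10.3% lower. Snhg6 rose by 4.29 (SE 0.23, adjusted p = 8.27e-08), from 3.24 ± 0.601 to 82.5 ± 18.7 FPKM, a ratio of 25.4. With the ERCC factors divided out it had 14.3 ± 2.79 against 306 ± 45.4 FPKM and a log2 fold change of 4.33. Snhg1 rose by 1.91 (SE 0.33, adjusted p = 0.000898), from 0.986 ± 0.313 to 6.84 ± 3.55 FPKM, a ratio of 6.94. Before maturation, Snhg1 had been the lower and Snhg6 the higher one in Zar1/2-null oocytes. Gas5 rose by 0.80 (SE 0.22, adjusted p = 0.0143), to 2.16 times the WT mean. Snhg3 rose by 0.77 (SE 0.25, adjusted p = 0.0375), from 0.421 ± 0.0693 to 1.42 ± 0.00252 FPKM, a ratio of 3.38.

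The remaining members were near 1 FPKM or under it at MII, as were Snhg3 in both genotypes and Snhg1 in WT. Snhg8 was at 0.55 (SE 0.25, adjusted p = 0.116), although its libraries did not overlap, and Snhg5 was at 0.14 (SE 0.18, adjusted p = 0.633). In all, 5 of the 6 hosts tested were higher in Zar1/2-null MII oocytes without overlap of the libraries, as were 43.5% of all genes. All 4 calls held without the ERCC factors, when 24.6% of all genes were called higher and 23.4% lower. The next fits kept the libraries of all stages and left out 1 MII library. Gas5 lost its call without the second WT library (0.61) and without the first Zar1/2-null library (0.63). Snhg3 lost its call whichever of the 4 libraries was left out, with log2 fold changes of 0.72 to 0.82. The granulosa and cumulus markers summed to 5.21 to 5.53 FPKM in WT and 7.33 to 8.58 FPKM in Zar1/2-null MII libraries, and none of the 6 tested was called by limma at this stage, with 1 at an unadjusted p under 0.05.

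**Figure D3:**
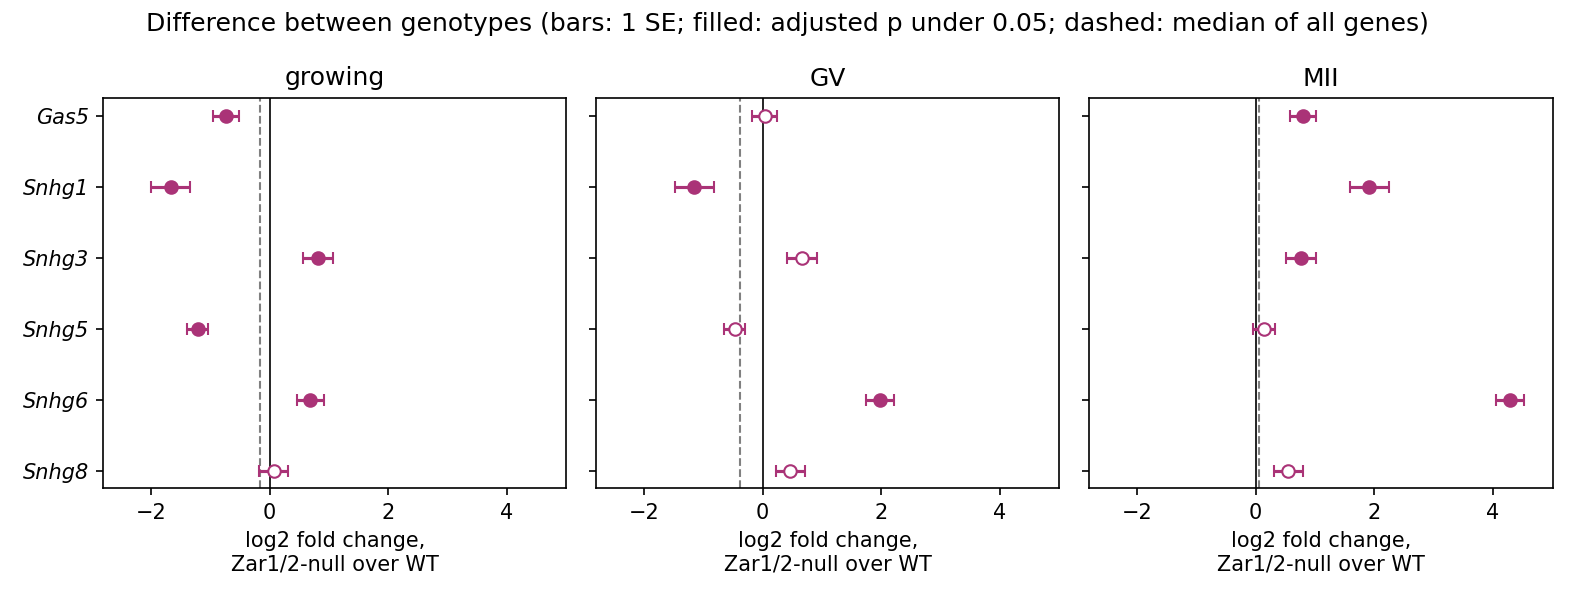
Log2 fold change of Zar1/2-null over WT oocytes for the 6 hosts tested at each stage, on the log2(FPKM + 1) scale, with bars of 1 SE. Filled points passed an adjusted p of 0.05 and the dashed line is the median of all genes tested. Snhg6 moved from 0.69 in growing to 1.98 in GV and 4.29 in MII oocytes, and Snhg1 from -1.66 and -1.15 to 1.91.

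The next comparisons follow the hosts along development within a genotype. From growing to GV oocytes of WT females, none of the 6 hosts was called, where 2.77% of all genes were called higher and 28.7% lower by limma. None of the 6 had an unadjusted p under 0.05 either, against 44.6% of all genes, and none was called under any alternative setting or with any library left out. The largest of these log2 fold changes in absolute size was that of Snhg3, at 0.50 (SE 0.25, adjusted p = 0.151). Snhg1 had nearly equal means on the log scale at both stages. In Zar1/2-null oocytes 2 hosts rose over the same interval, where 4.76% of all genes were called higher and 55.9% lower. Snhg6 rose by 0.98 (SE 0.23, adjusted p = 0.00378), a ratio of 1.98, and Gas5 by 0.89 (SE 0.22, adjusted p = 0.00472), a ratio of 2.1. The other 4 had log2 fold changes between 0.03 and 0.51. All 6 lay above the median of all genes, which was -0.50. With the ERCC factors divided out, Snhg1 (1.05), Snhg3 (0.88) and Snhg5 (0.93) were called too, which made 5 higher hosts where 14.3% of all genes were called higher.

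From GV to MII in WT oocytes 5 hosts fell, where 93.4% of all genes were called lower on the ERCC scale. Snhg1 fell by 4.50 (SE 0.33, adjusted p = 1.37e-07), to 0.0215 of its GV mean. Snhg5 fell by 2.97 (SE 0.18, adjusted p = 2.66e-08). Snhg6 fell by 2.93 (SE 0.23, adjusted p = 2.64e-07) and Snhg3 fell by 2.31 (SE 0.25, adjusted p = 4.47e-06). Gas5 fell by 1.47 (SE 0.22, adjusted p = 5.35e-05), close to the median of all genes at -1.28, and Snhg8 was at -0.18 (adjusted p = 0.478). A fall of nearly every gene on this scale makes the count of falling hosts uninformative by itself. With the ERCC factors divided out, when 47.6% of all genes were called lower, 4 hosts were called lower, with Snhg1 at -3.46, Snhg5 at -2.40, Snhg3 at -1.64 and Snhg6 at -1.46. Gas5 was then at -0.15 (adjusted p = 0.556) and at 0.15 when libraries were scaled to a common median, so its direction depended on the scaling. Snhg8 was at 0.67 without the factors and at 0.64 with median scaling.

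In Zar1/2-null oocytes the same 5 hosts fell from GV to MII, where 68.7% of all genes were called lower. Snhg5 fell by 2.35 (SE 0.18, adjusted p = 3.98e-07) and Snhg3 fell by 2.21 (SE 0.25, adjusted p = 1.16e-05), to 0.0764 and 0.138 of their GV means. Snhg1 fell by 1.43 (SE 0.33, adjusted p = 0.00232), to 0.359 of its GV mean. Gas5 fell by 0.70 (SE 0.22, adjusted p = 0.0134) and Snhg6 fell by 0.62 (SE 0.23, adjusted p = 0.0325), near the median of all genes at -0.72. Without the factors 2 hosts, Snhg3 (-1.61) and Snhg5 (-2.21), were called lower, where 40.5% of all genes were, and Snhg6 (0.43) and Gas5 (0.20) changed direction. In the fit to all stages, the calls of Gas5 and Snhg6 were lost without the first Zar1/2-null GV library (-0.63 and -0.46). They were also lost without the second Zar1/2-null MII library (-0.52 and -0.39).

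**Figure D4:**
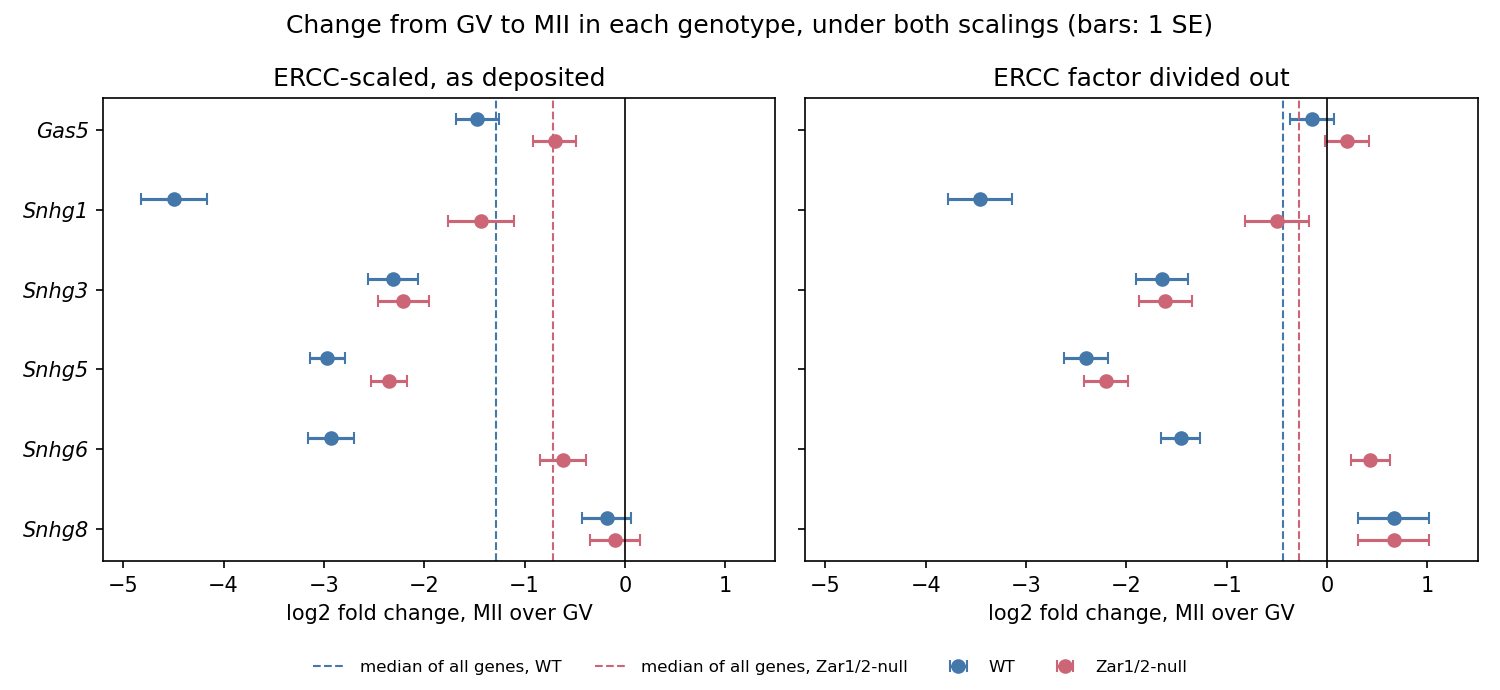
Log2 fold change from GV to MII of the 6 hosts tested, on the log2(FPKM + 1) scale with bars of 1 SE, in WT (blue) and Zar1/2-null (red) oocytes, with the ERCC-scaled values at left and the ERCC factors divided out at right. Dashed lines are the medians of all genes. Snhg1 and Snhg6 separated the genotypes under both scalings, and for Snhg3, Snhg5 and Snhg8 the genotypes were 0.61 or less apart.

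Whether the change differed between the genotypes was tested as the difference of the 2 genotype effects, in the same fit. Between GV and MII this difference was called for 2 hosts, in the direction of a smaller fall in Zar1/2-null oocytes, where 33.9% of all genes were called in that direction and 0.643% in the other. It was 3.06 (SE 0.46, adjusted p = 0.000534) for Snhg1 and 2.31 (SE 0.33, adjusted p = 0.000331) for Snhg6. Without the factors it was 2.96 and 1.89, and both calls held. For Snhg3 it was 0.10 (SE 0.36, adjusted p = 0.845), for Snhg8 0.08 (SE 0.35, adjusted p = 0.869), for Snhg5 0.61 (SE 0.25, adjusted p = 0.0801) and for Gas5 0.77 (SE 0.31, adjusted p = 0.0723). Gas5 and Snhg5 passed without the second WT GV library, at 1.02 (adjusted p = 0.0356) and 0.81 (adjusted p = 0.0373). Between growing and GV the difference was called for Snhg6 alone, at 1.29 (SE 0.33, adjusted p = 0.0273), where 2.58% of all genes were called in this direction. It lost its call without either WT growing library, the second WT GV library, the second Zar1/2-null growing library or the first Zar1/2-null GV library, with values between 1.03 and 1.34, and in a fit to the 8 libraries of these stages (adjusted p = 0.0556). Both tests use the GV libraries.

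Mature snoRNAs have no poly(A) tail, and the library did not select for short RNA. Of 28 snoRNAs of the 7 hosts that were looked up by symbol, 8 had a row and 6 of these were listed at 0 in all 12 libraries, Snord87 of Snhg6 among them. Snora44 of Snhg12 was listed at 61.5 and 16.3 FPKM in the WT GV libraries and at 0 in the other 10, and Snora24 of Snhg8 was above 0 in 3 libraries with at most 8.06 FPKM. The host levels therefore give no measure of the snoRNAs. An exact 0 in such a table can also be a failed estimate.

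Of 12 other non-coding hosts listed for comparison, 5 had a row and 2 were tested. Snhg9 had 4.36 and 0 FPKM in WT growing, 14.8 and 13.7 in Zar1/2-null growing, 0 and 8.60 in WT GV and 13.6 and 10.4 in Zar1/2-null GV libraries. At MII its row was 0 in both WT libraries, against 17.4 and 8.12 FPKM with Zar1 and Zar2 disrupted. It was called higher in Zar1/2-null growing (adjusted p = 0.0366) and MII oocytes (adjusted p = 0.00840) and not at GV (adjusted p = 0.0849), the same direction at each stage as Snhg6. Snhg10 was called in no genotype comparison on the ERCC scale, with log2 fold changes between 0.12 and 0.40. Without the ERCC factors 1 of the 2 hosts tested was called higher in growing, GV and MII oocytes alike. Of all genes, 14.9%, 7.19% and 24.6% were then called higher at these stages.

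Many snoRNAs lie in introns of protein-coding genes, above all of ribosomal protein genes, which also carry TOP tracts. All 23 such ribosomal hosts were tested. In growing oocytes none was called by limma and none had an unadjusted p under 0.05, against 45.2% of all genes. Without the ERCC factors 4 of the 23 were called higher, beside 14.9% of all genes. Their median log2 fold change was -0.11 against -0.16 for all genes. In GV oocytes 1, Rpsa, was lower (-0.55, adjusted p = 0.0109), beside 40.6% of all genes. Without the factors Rpsa was at -0.10 (adjusted p = 0.700), and 4 of the 23 were higher and none lower, beside 7.19% and 13.5% of all genes. In MII oocytes 20 were higher and 1 lower in the Zar1/2-null group, with a median of 1.62 against 0.06 for all genes, of which 21.5% were called higher. Without the factors 19 were higher and 2 lower, beside 24.6% and 23.4% of all genes. Rpl39 rose from 3.71 ± 0.0365 to 1096 ± 199.99 FPKM, Rpl23a from 1.74 ± 0.367 to 78.2 ± 27.8 FPKM and Rps12 from 17.4 ± 0.770 to 326 ± 6.61 FPKM (SD, n = 2 each). From GV to MII all 23 fell in WT oocytes (median -4.98) and 22 fell in Zar1/2-null oocytes (median -3.10), where 93.4% and 68.7% of all genes were called lower. Of the 56 ribosomal protein genes that host no listed snoRNA, 53 were higher and none lower at MII (median 2.60). In growing oocytes 3 were higher and 3 lower, beside 10.6% and 24.4% of all genes. At GV 1 was higher and 3 were lower, beside 2.83% and 40.6% of all genes.

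The 14 other protein-coding hosts, such as Ncl (nucleolin) and the heat shock protein genes Hspa8 and Hspa9, gave 4 lower hosts in growing, 6 lower in GV, and 3 higher and 4 lower in MII oocytes. The share called lower among all genes was 24.4% in growing, 40.6% in GV and 10.3% in MII oocytes, and 21.5% were called higher at MII. Without the ERCC factors the counts were 2 higher in growing, 1 lower in GV, and 3 higher and 4 lower in MII oocytes. Of all genes, 14.9% were then called higher in growing and 13.5% lower in GV oocytes, and 24.6% higher and 23.4% lower at MII. In growing oocytes Rabggtb was at -0.95, Taf1d at -0.68 and Ncl at -0.56, all with an adjusted p of 0.0358 or less. Without the factors none of these was called, at -0.69, -0.40 and -0.28 (adjusted p = 0.0508, 0.122 and 0.303). Hspa9 was lower at GV (-1.32, adjusted p = 0.000174) and at MII (-1.25, adjusted p = 0.000139). Both Hspa9 calls held without the factors, at -0.89 and -1.56.

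The proteins that bind and assemble snoRNAs were also listed. Of 17 genes, 2 were higher and 4 lower in growing, 7 lower in GV, and 7 higher and 1 lower in MII oocytes of the Zar1/2-null group, where 24.4%, 40.6% and 10.3% of all genes were called lower and 10.6%, 2.83% and 21.5% higher at the 3 stages. Without the factors 6 were higher and 1 lower in growing, 3 higher and 2 lower in GV, and 7 higher and 3 lower in MII oocytes. Of all genes, 14.9%, 7.19% and 24.6% were then called higher and 12.3%, 13.5% and 23.4% lower. The balance in growing oocytes depended on the scaling, for these genes as for all genes. Among the core proteins, Dkc1, the pseudouridine synthase of H/ACA particles, was at -0.76 (adjusted p = 0.0125) and Fbl, the methyltransferase of C/D particles, at -0.69 (adjusted p = 0.0219) in growing oocytes. Without the ERCC factors Dkc1 was at -0.48 (adjusted p = 0.0245) and Fbl at -0.45 (adjusted p = 0.194). Fbl was also lower at GV (-0.96, adjusted p = 0.00350), as was the C/D protein gene Nop58 (-0.95, adjusted p = 0.000714). Without the factors Nop58 was still called there (-0.52, adjusted p = 0.0106) and Fbl was not (-0.62, adjusted p = 0.0977). At MII the H/ACA protein genes Nhp2 (2.78, adjusted p = 1.73e-07) and Nop10 (2.58, adjusted p = 1.67e-06) were higher.

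The genes near the hosts did not follow them in every case. Slc3a2, which starts within 1 kb of Snhg1 on the other strand and codes for a chain of amino acid transporters, measured 58.9 ± 0.914 FPKM in WT growing oocytes against 66.6 ± 5.78 FPKM without Zar1 and Zar2 (log2 fold change 0.17, adjusted p = 0.424). At GV it was at 0.04 (adjusted p = 0.846), and at MII it was higher in Zar1/2-null oocytes (0.88, adjusted p = 0.00115). Zbtb37, which overlaps Gas5, was lower at GV (-0.77, adjusted p = 0.00169) and not called in growing or MII oocytes.

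Across the 12 libraries the log2(FPKM + 1) of Snhg1 and Snhg5 had the highest Pearson r of any pair of tested hosts, at 0.929, followed by Gas5 and Snhg1 at 0.895. Snhg6 had 0.420 with Snhg5 and 0.578 with Snhg1. These are descriptions over libraries that share stage, genotype and ERCC factor. Of 5962 genes searched, those most like the mean profile of the hosts were Tmem179b (r = 0.990), Iqcf5 (0.988), Tceb1 (0.987), Mrps33 (0.986) and Hspb11 (0.986). Each of these had its lowest mean in WT MII oocytes. They were chosen by likeness over these same libraries, so this is no separate result.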

How the data were processed

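The series holds 12 Smart-seq2 libraries of 10 oocytes, 2 in each of 6 groups. Per the study's methods, reads were trimmed to 50 bp and mapped to mm9 with TopHat2 2.1.1, uniquely mapped reads were assembled with Cufflinks 2.2.1 on UCSC gene models, and the deposited FPKM values were multiplied by the authors with an ERCC factor per library, relative to WT growing oocytes. The factors were recovered from the digits of the values. No read counts were used, and values under 1 FPKM are the least certain.

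The tests here used limma 3.58.1 in R 4.3.3. All 12 libraries entered as log2(FPKM + 1), each group being its own term, with an intensity trend and Benjamini-Hochberg adjustment over the 11502 genes with at least 1 FPKM in a library. The script was tested on simulated data. The table of 23230 genes has 12 columns of values, and all were used. Alternatives changed the ERCC scaling, the pseudocount (0.1), the filter, the trend, the libraries fitted and a replicate block, and left out each library in turn within the groups compared. Named genes were the 7 hosts, their neighbours and snoRNAs, the 5 genes most like them, and of each other list up to 3 called members with the largest log2 fold change and a mean of at least 5 FPKM. Members and lists were chosen with earlier results of these data known. Start sites came from RefSeq (GRCm38.p6) and the positions given for the hosts from GENCODE on mm9. Neighbours and counts of snoRNA genes came from RefSeq positions, with the strand of a neighbour taken from GENCODE on mm9. A neighbouring gene of a host is not reported here.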

Additional observations from a re-analysis of the deposited data

Results flagged for a closer look

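For 3 results the effect of the genotype differed between stages by a test of that difference, in the same limma fit over all 12 libraries with Benjamini-Hochberg adjustment. Snhg6 was 0.69 higher in Zar1/2-null growing oocytes and 1.98 higher in GV oocytes on the log2(FPKM + 1) scale, a difference of 1.29 (SE 0.33, adjusted p = 0.0273). In this direction 2.58% of all genes were called. Snhg6 lost this call with no filter on low values, in a fit to the groups compared and with some single libraries left out. Between GV and MII its genotype effect grew by a further 2.31 (SE 0.33, adjusted p = 0.000331), to 4.29. Snhg1 went from -1.15 at GV to 1.91 at MII, a difference of 3.06 (SE 0.46, adjusted p = 0.000534), with both Zar1/2-null libraries below WT at GV and above WT at MII. Between GV and MII, 33.9% of all genes were called in the direction of Snhg1 and Snhg6.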

How the results depend on the processing

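Of the values of single hosts under the alternatives, 608 stayed on their side of the threshold, 42 lost a call, 21 gained one and 7 that were called in at least 1 of the fits turned. Of the 608, 34 changed sign without being called in either fit, 13 of them under another scaling and 21 under other alternatives. The 7 turned under another scaling. In WT from GV to MII, median scaling put Gas5 at 0.15 and Snhg8 at 0.64. In Zar1/2-null oocytes from GV to MII, Gas5 and Snhg6 were at 0.20 and 0.43 without ERCC scaling, and Gas5, Snhg6 and Snhg8 were at 0.44, 0.71 and 0.73 with median scaling. Counts of called hosts changed by over 1.5 times as follows. In growing oocytes no filter on low values gave 3 in place of 5. From growing to GV in Zar1/2-null oocytes, no ERCC scaling and median scaling each gave 5 in place of 2, and a mean of at least 5 FPKM gave 1, which tests fewer genes. From GV to MII in Zar1/2-null oocytes no ERCC scaling gave 2 in place of 5. For the difference of genotype effects between growing and GV, no filter and a fit to the groups compared gave 0 in place of 1. With each library left out in turn the counts were 2 to 4 in growing, 1 to 4 in GV and 2 to 3 in MII oocytes between genotypes, 0 to 0 and 5 to 5 for WT from growing to GV and GV to MII, 2 to 3 and 3 to 5 for Zar1/2-null oocytes, and 0 to 1 and 2 to 4 for the differences of genotype effects. Where no cause is named, the cause was not tested. The lone library of a group was then assumed to vary like the others.

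Both WT growing libraries have an ERCC factor of 1, so the factors appear to be set within a replicate number, which ties libraries in that step. The deviations of equally numbered libraries had correlations of -0.12 to 0.16 over 15 pairs of groups, and the libraries were not treated as paired. With the number as a replicate block, the count was 4 in place of 2 in GV oocytes, 3 in place of 1 and 4 in place of 2 for the differences between growing and GV and between GV and MII. No counting error is given, and values under 1 FPKM are the least certain.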

Other observations

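The factors of nonsense-mediated decay, the pathway that removes spliced Gas5 and Snhg1 RNA in other cells, were described as a list. Of 14 listed genes 12 were tested. In the Zar1/2-null group 1 was higher and 3 lower in growing oocytes (median log2 fold change -0.30 against -0.16 for all genes), 3 were lower in GV oocytes (-0.30 against -0.38), and 2 were higher and 1 lower in MII oocytes (0.01 against 0.06). Of all genes, 24.4%, 40.6% and 10.3% were called lower and 10.6%, 2.83% and 21.5% higher at these stages. Without the ERCC factors 1 was higher and 1 lower in growing, 1 lower in GV, and 3 higher and 4 lower in MII oocytes. Of all genes, 14.9%, 7.19% and 24.6% were then called higher and 12.3%, 13.5% and 23.4% lower at these stages. Upf1, the helicase at the centre of the pathway, fell from 21.1 ± 0.753 to 13.6 ± 1.05 FPKM in growing oocytes (SD, n = 2 each; log2 fold change -0.60, adjusted p = 0.0129), and its partner Upf2 from 8.19 ± 0.0397 to 5.14 ± 0.292 FPKM (-0.58, adjusted p = 0.00509). Neither was called without the ERCC factors, at -0.33 and -0.34. Eif4a3, a subunit of the exon junction complex, was higher at MII (1.17, adjusted p = 0.000118), from 14.8 ± 0.864 to 34.6 ± 1.34 FPKM.

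The genes whose products bind TOP transcripts or regulate their translation were mostly lower at GV, where 8 of the 10 tested were called lower in the Zar1/2-null group and none higher, with a median of -0.58 against -0.38 for all genes, of which 40.6% were called lower. Without the ERCC factors 3 were lower, beside 13.5% of all genes. Cnbp, a protein that binds TOP sequences, fell from 223 ± 55.0 to 65.3 ± 14.8 FPKM in GV oocytes (-1.75, adjusted p = 9.34e-05), and from 103 ± 10.4 to 30.03 ± 0.680 FPKM at MII (-1.75, adjusted p = 4.30e-05). It was called lower without the factors at both stages. Larp4, an RNA-binding protein of the La-related family, was lower at all 3 stages (-0.72, -1.09 and -1.23), and without the factors it was called at GV (-0.68) and MII (-1.57) but not in growing oocytes (-0.44, adjusted p = 0.105).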
